A study of Drosophila melanogaster with 35 samples.

Results

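The mitochondrial genome and the nuclear genes for mitochondrial ribosomal proteins were examined in RNA-seq of fly heads. The rule for members read the symbol: a symbol that starts with mt: marks a gene of the mitochondrial genome, and a symbol that starts with mRpL or mRpS and a number marks a protein of the large or the small subunit of the mitochondrial ribosome. The rule found 89 of the 14279 rows. The 17 mt: rows held 13 protein genes, 2 ribosomal RNA genes and 2 tRNA genes. The 72 mRp rows held 46 mRpL and 26 mRpS genes. All 89 rows were tested.

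The study profiled heads of flies aged 1 week in 35 libraries of 12 genotypes, 3 libraries each except 2 for tau alone. It asked how human TREM2 with its partner TYROBP in glia changes head transcripts, alone or beside a human Alzheimer's disease protein in neurons or eye. Every genotype carried Repo-LexA, which drives LexAop2 transgenes in glia. Wild-type TREM2 (TREM2WT) or TREM2 with the R47H variant (TREM2R47H) was always expressed together with TYROBP. In the 6 elav genotypes elav-gal4, a neuronal driver, sat with Repo-LexA over a Y chromosome, and the flies carried no other transgene (control), TREM2WT/TYROBP, TREM2R47H/TYROBP, UAS-Aβ42, or UAS-Aβ42 with either TREM2 form. In the 6 GMR genotypes GMR-gal4, an eye driver, was combined with no other transgene (control), TREM2WT/TYROBP, TREM2R47H/TYROBP, UAS-Tau, or UAS-Tau with either TREM2 form. A control therefore carried its drivers and no responder. The number of independent transgenic lines behind each responder was not given in the sources used here. Heads of many flies were pooled for each genotype, and nothing stated that replicates came from separate crosses, so the p-values measure only the spread between these libraries.

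The mitochondrial genome codes core membrane subunits of the respiratory chain and of ATP synthase, and the RNAs of the mitochondrial ribosome. It is transcribed as long precursors from both strands that are cut into single transcripts, mostly at the tRNAs. The proteins of that ribosome are all coded in the nucleus and imported, so making a respiratory complex needs products of both genomes. Heads are rich in neurons and photoreceptors, cells that depend on oxidative phosphorylation.

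Values were log2 counts scaled to library size (CPM) and adjusted for RNA integrity, and each is given at equal RNA integrity number (RIN). A call means a Benjamini-Hochberg adjusted p under 0.05 over all 14279 rows and a fold above 1.2 in limma. Depth per library was unknown, because the table held no counts. RIN lay between 5.6 and 7.5. Neuron, glia and photoreceptor markers were high in all 35 libraries, with nSyb between 8.75 and 9.07, repo between 6.43 and 6.96 and ninaE between 13.9 and 14.7. Some muscle and germline markers varied widely. The muscle gene TpnC4 lay between -3.9 and 3.1 in elav and between -4.94 and 4.49 in GMR libraries, while Mhc lay between 10.05 and 10.53 and between 10.47 and 11.22. In GMR libraries the germline gene nos lay between -4.63 and 4.82 and vas between -2.44 and 2.35, while bam and Vm26Aa reached only -0.597 and -3.71. The part of such tissue in the mt: and mRp values was not tested. The methods name male flies for RNA-seq. The male dosage compensation RNA roX1, however, lay between 11.4 and 11.7 in the elav libraries and between 5.43 and 5.89 in the GMR libraries. The yolk protein gene Yp3 lay between 5.39 and 7.62 against 15.0 to 15.6. The strain labels name a Y chromosome in the elav genotypes and write Repo-LexA over + in the GMR genotypes. The GMR libraries thus went against the stated sex, so comparisons were made within a driver, and driver and sex cannot be told apart between them.

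The 17 mt: rows made up a few percent of each library. Their summed back-transformed values lay between 2.69% and 5.97% of the library's sum, with a median of 4.10%, and those of the 72 mRp rows lay between 0.114% and 0.132%. The coordinates are those of BDGP6. On the plus strand mt:tRNA:I (mitochondrion, 1 to 65) was followed by mt:ND2 (240 to 1265), mt:CoI (1474 to 3009), mt:CoII (3083 to 3767), mt:ATPase8 (3907 to 4068), mt:ATPase6 (4062 to 4736), mt:CoIII (4736 to 5524), mt:ND3 (5608 to 5961) and mt:tRNA:A (5981 to 6045). On the minus strand lay mt:ND5 (6402 to 8124), mt:ND4 (8206 to 9544) and mt:ND4L (9544 to 9834), and mt:ND6 (9970 to 10494) and mt:Cyt-b (10498 to 11634) lay on the plus strand. The minus strand then held mt:ND1 (11720 to 12658), mt:lrRNA (12734 to 14058) and mt:srRNA (14131 to 14916). mt:ATPase8 and mt:ATPase6 share 7 bases, and how reads over 2 genes were counted was not given in the sources used here.

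Levels per kilobase of gene length differed widely along one genome. mt:CoI, the catalytic subunit of cytochrome c oxidase (complex IV), was the highest of the 17, with a mean log2 level per kilobase of 13.22. mt:CoIII of the same complex followed at 12.79, mt:lrRNA, the large ribosomal RNA, at 12.71 and mt:CoII at 11.97. mt:CoI exceeded mt:CoIII in 35 of 35 libraries, while mt:CoIII exceeded mt:lrRNA in 26, so the order of the latter pair was not the same in every library.

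mt:Cyt-b, the subunit of complex III coded in the mitochondrial genome, had a mean log2 level per kilobase of 11.76, and mt:ATPase6, part of the proton channel of ATP synthase, of 11.50. The complex I subunits spanned a wide range, with mt:ND1 at 9.79, mt:ND5 at 9.64, mt:ND4 at 9.56, mt:ND3 at 8.65, mt:ND4L at 5.59, mt:ND2 at 5.51 and mt:ND6 at 4.17. mt:ND5 exceeded mt:ND4 in 20 of 35 libraries and mt:ND4L exceeded mt:ND2 in 23, so those neighbours in the order were not separated, while mt:ND2 exceeded mt:ND6 in 35. mt:srRNA, the small ribosomal RNA, stood at 8.96, mt:ATPase8 at 6.81, mt:tRNA:I at 3.38 and mt:tRNA:A at -0.19. The rRNA levels were those left after a depletion kit for human, mouse and rat rRNA, and its action on fly transcripts was not tested.

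**Figure D1:**
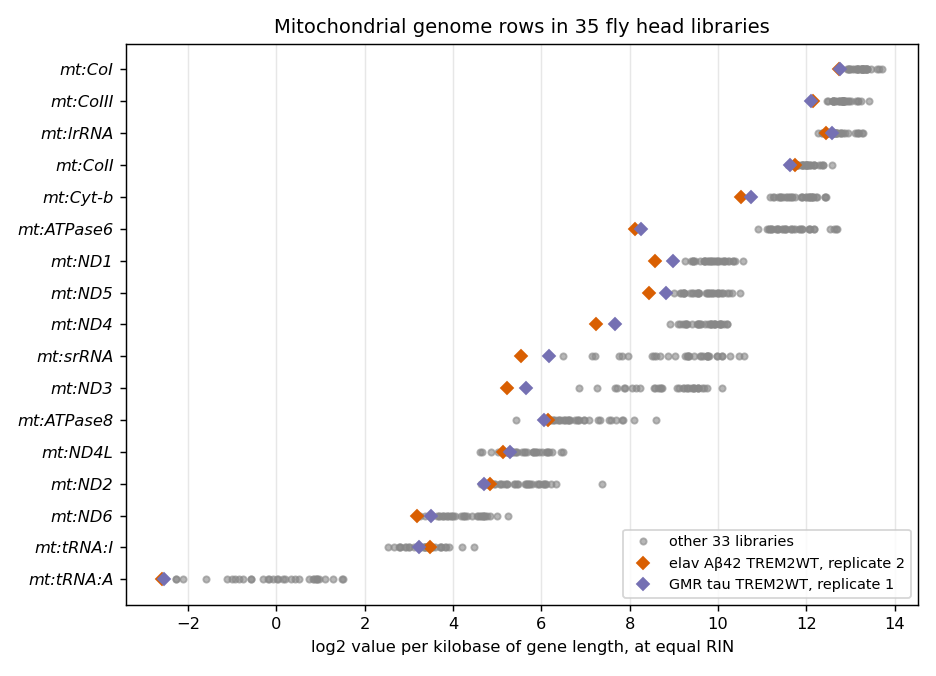
Log2 value per kilobase of gene length at equal RIN (x axis) of the 17 mt: rows (y axis, ordered by mean), with 1 point per library; orange and violet diamonds are the pair of libraries with the lowest mt:ATPase6. mt:CoI was highest at a mean of 13.22 and mt:tRNA:A lowest at -0.19, and the diamonds stand apart at mt:ATPase6, mt:ND4, mt:srRNA and mt:ND3 but not at mt:lrRNA.

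Libraries of a genotype differed far more in mitochondrial genome transcripts than in nuclear transcripts. The residual SD, the spread of libraries of a genotype about their mean on the log2 scale, had a median of 0.35 over the 17 mt: rows and of 0.08 over the 72 mRp rows. The median was 0.10 over all rows and 0.056 over the 675 other rows whose mean reached 8. All 72 mRp rows had an SD under 0.2. Among mt: rows it ran from 0.16 for mt:lrRNA and mt:CoII to 0.84 for mt:ATPase6, 1.16 for mt:ND3 and 1.29 for mt:srRNA. The most abundant rows were thus among the least variable of the genome, and mt:ATPase6 was an abundant row that varied widely.

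The protein genes of the mitochondrial genome moved together between libraries. Over 35 libraries that share the scaling to library size, residual correlations of the 78 pairs of 13 protein genes lay between 0.56 and 0.99 with a median of 0.87. The median was 0.85 over the 33 libraries other than the 2 described next. mt:srRNA followed the protein genes, with correlations of 0.66 to 0.99, whereas mt:lrRNA, its neighbour on the same strand, had correlations of 0.14 to 0.51 with them. The correlation of mt:ND3 with mt:srRNA was 0.99 and that of mt:ATPase6 with mt:ND4 was 0.97. The 2556 pairs of mRp genes had a median of 0.23, and the 1224 pairs of an mt: and an mRp row a median of -0.02. Counts over mt: rows are for this reason not counts of independent genes.

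The library of replicate 2 of elav Aβ42/TREM2WT/TYROBP and that of replicate 1 of GMR tau/TREM2WT/TYROBP stood apart. mt:ATPase6 was 7.56 in the first against 10.66 and 11.09 in the other libraries of its genotype, and 7.68 in the second against 10.76 and 11.12. The remaining 33 libraries lay between 10.34 and 12.13. mt:ND3 was 3.72 against 7.06 and 7.57 in the elav genotype, and 4.16 against 8.18 and 8.06 in the GMR genotype. Both libraries were below all others for these complex I and ATP synthase subunits.

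The deficit was uneven along the genome and followed a like order of rows in the pair. Relative to the mean of the other libraries of the genotype, mt:srRNA differed by -3.62 in the elav and -4.01 in the GMR library, mt:ATPase6 by -3.32 and -3.26, and mt:ND4 by -2.46 and -2.31. mt:Cyt-b, mt:ND5 and mt:ND1 differed by -1.06 to -1.44, mt:CoI by -0.45 and -0.52, mt:CoIII by -0.57 and -0.72, mt:CoII by -0.10 and -0.41, and mt:lrRNA by -0.03 and -0.07. mt:ND2 (-0.49 and -1.20), mt:ATPase8 (-0.31 and -0.98), mt:ND4L (-0.33 and -0.89) and mt:ND6 (-0.64 and -1.15) differed more in the GMR library than in the elav library. Over the 15 protein and rRNA rows the 2 profiles had a correlation of 0.98. Of these 15 rows, 7 were lower by more than 1 in both libraries, against 2 of the 10125 rows outside the mitochondrial genome whose mean log2 value reached 0, a snoRNA and a U2 snRNA, and 0 of the 72 mRp rows. Because the pair was picked by its low mt: values, the correlation and these counts describe it and test nothing. mt:tRNA:A, near the floor of the table, differed by -1.92 and -3.50, and mt:tRNA:I by 0.01 and -0.50. The median difference of the mRp rows was 0.07 and -0.01. RIN was 7.1 and 6.4, inside the range of the other libraries.

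A narrower deficit was seen in 3 further libraries. In replicate 3 of elav TREM2WT/TYROBP mt:srRNA differed by -2.29 and mt:ND3 by -1.88 from the rest of the genotype, with mt:ATPase6 at -0.28. In replicate 2 of GMR TREM2WT/TYROBP the differences were -2.49, -2.09 and -0.84, and in replicate 1 of GMR tau/TREM2R47H/TYROBP they were -2.32, -1.77 and -0.14. In each of these, mt:srRNA and mt:ND3 were the protein and rRNA rows lower by more than 1, against 18, 16 and 46 of the 10125 other rows. These libraries too were picked by their mt: values, so the counts are description only. The part of these libraries in the results below was measured by leaving libraries out.

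**Figure D2:**
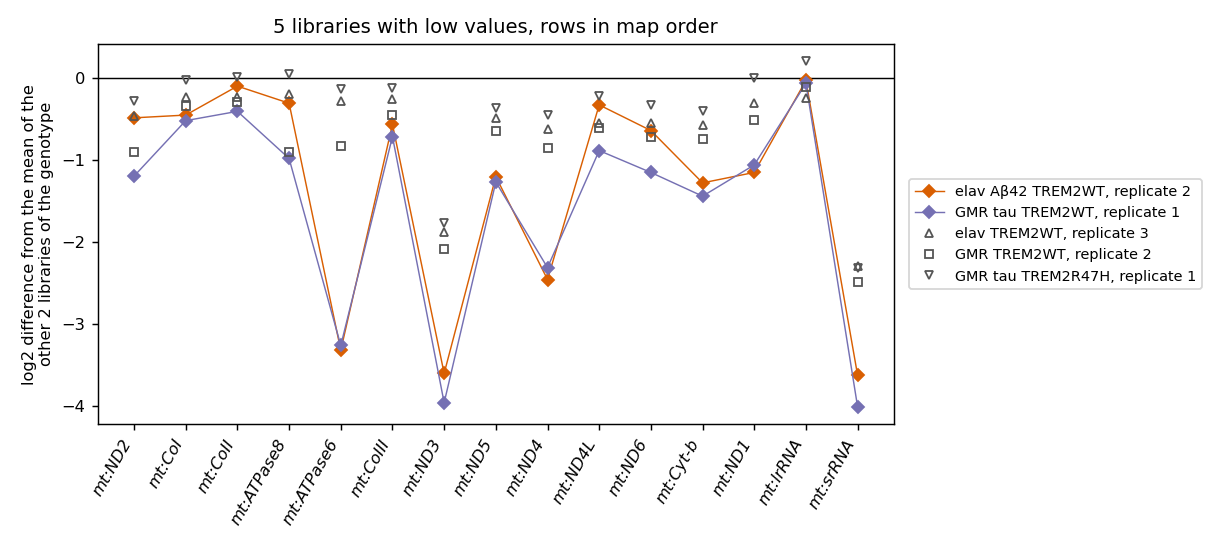
Difference in log2 value (y axis) of 5 libraries from the mean of the other 2 libraries of their genotype, for the 15 mt: protein and rRNA rows in map order (x axis); diamonds joined by lines are the pair that stood apart and open symbols the 3 further libraries. The lines fall to between -3.26 and -4.01 at mt:ATPase6, mt:ND3 and mt:srRNA and are closest to 0 at mt:lrRNA, at -0.03 and -0.07.

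TREM2R47H/TYROBP without Aβ42 or tau had all 17 mt: rows at positive fold changes against the control of either driver. In elav heads all 17 mt: rows had a positive fold change against control, with a median log2 fold change of 0.60, beside -0.01 over all 14279 rows. RIN did not overlap there, at 6.9 to 7.1 with TREM2R47H/TYROBP and 6.4 to 6.8 in elav controls. The RIN slope came from the libraries of both drivers, with RIN of 6.4 to 7.1 in elav and 5.6 to 7.5 in GMR libraries. The part of RIN was not tested beyond leaving out the RIN term, which gave a median of 0.68. mt:CoII, the copper-carrying subunit of complex IV that accepts electrons from cytochrome c, was 11.62, 11.83 and 11.83 with TREM2R47H/TYROBP against 11.44, 11.25 and 11.13 in controls. The 3 libraries were above all other 15 elav libraries, which lay between 11.05 and 11.47. mt:CoII rose by a log2 fold change of 0.48 (SE 0.14, adjusted p = 0.033, limma) and was the only mt: row called. In that comparison 1.92% of all rows were called higher. In 11 of 17 mt: rows the libraries did not overlap and TREM2R47H/TYROBP was higher, as were 13.8% of all rows. For TREM2WT/TYROBP against control, 3 of 17 mt: rows were positive in elav heads (median -0.10) and 14 of 17 in GMR heads (median 0.18). Limma called none of these, against 573 and 670 of all 14279 rows, with 0 and 2 of 17 at an unadjusted p under 0.05. In such bulk heads a change in the number of cells of a type and a change in RNA per cell cannot be told apart from these values. By staining of brains, the study found no significant difference in the number of glia or neurons with either TREM2 form and TYROBP.

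The call of mt:CoII rested on most of its libraries. It was lost without elav control replicate 2 or 3, without elav TREM2R47H/TYROBP replicate 2 or 3, or without GMR TREM2R47H/TYROBP replicate 1, with adjusted p-values from 0.064 to 0.14, the log2 fold change of mt:CoII staying between 0.42 and 0.47. With elav libraries alone in the fit it was 0.31 (adjusted p = 0.60), and with each library scaled on the sum of rows that are not mt: it was 0.66 (adjusted p = 0.055).

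Against TREM2WT/TYROBP in elav heads all 17 mt: rows were again positive, with a median of 0.71, in a comparison that uses the same TREM2R47H/TYROBP libraries. mt:ND4L, a small membrane subunit of complex I, was 4.23, 4.45 and 4.32 with TREM2R47H/TYROBP, 3.63, 3.24 and 2.88 with TREM2WT/TYROBP, and 4.02, 3.55 and 3.49 in controls. mt:ND4L rose by 1.09 (SE 0.25, adjusted p = 0.013) over TREM2WT/TYROBP, without overlap, which was the only mt: call within a driver with a log2 fold change above 1. The neighbour mt:ND4, which shares 1 base with mt:ND4L, differed by 0.71 and was not called. mt:ND4L is only 291 bases long, and the part of read counting in its value was not tested. mt:CoII was 11.47, 11.24 and 11.12 with TREM2WT/TYROBP and rose by 0.48 (SE 0.13, adjusted p = 0.042). Higher calls made up 0.868% of all rows there. The libraries did not overlap, with TREM2R47H/TYROBP higher, for 14 of 17 mt: rows and for 9.89% of all rows. The call of mt:ND4L was lost without elav TREM2WT/TYROBP replicate 3, one of the 3 further low libraries (0.90, adjusted p = 0.10), or without elav TREM2R47H/TYROBP replicate 2 (1.03, adjusted p = 0.067), and that of mt:CoII without any of 6 libraries (adjusted p = 0.051 to 0.20): replicates 2 and 3 of elav TREM2WT/TYROBP and of elav TREM2R47H/TYROBP, elav control replicate 2 and GMR tau/TREM2R47H/TYROBP replicate 2. The call of mt:CoII was also lost with no RIN term (adjusted p = 0.052), with elav libraries alone (0.077), with scaling on the sum of rows that are not mt: (0.32) and with a replicate block (0.069).

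In GMR heads, with control libraries of their own, all 17 mt: rows were positive for TREM2R47H/TYROBP against control, with a median of 0.51. RIN was 5.6 to 6.9 in that group and 6.8 to 6.9 in GMR controls. Its part in the result was not tested beyond leaving out the RIN term, and the median was then 0.34. A fit with no RIN term still used values that the authors had adjusted for RIN. mt:CoII was 11.75, 12.04 and 11.63 against 11.24, 11.29 and 11.36. The groups did not overlap, and mt:CoII rose by 0.51 (SE 0.15, adjusted p = 0.032), the one mt: call, where 2.83% of all rows were called higher. For 12 of 17 mt: rows the TREM2R47H/TYROBP libraries were all higher, as for 16.8% of all rows. Against GMR TREM2WT/TYROBP, where mt:CoII was 11.57, 11.38 and 11.78, 15 of 17 rows were positive with a median of 0.29 and limma called none, against 1.77% of all rows, with 1 of 17 at an unadjusted p under 0.05. That median was 0.13 with no RIN term, RIN being 6.5 to 7.5 with TREM2WT/TYROBP, and 0.43 without the pair of libraries that stood apart. The call of mt:CoII against control was lost without GMR control replicate 1 or 2, GMR TREM2R47H/TYROBP replicate 1 or 2 or GMR TREM2WT/TYROBP replicate 2, with log2 fold changes of 0.42 to 0.59 and adjusted p-values of 0.055 to 0.089, with GMR libraries alone in the fit (0.48, adjusted p = 0.12) and with scaling on the sum of rows that are not mt: (0.38, adjusted p = 0.37).

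The most abundant mt: row showed the same order without a call. mt:CoI was 14.09, 14.26 and 14.34 in elav TREM2R47H/TYROBP heads and 13.97, 13.80 and 13.76 in elav controls, a log2 fold change of 0.39 (SE 0.15, adjusted p = 0.13). It was 13.99, 14.22 and 13.88 in GMR TREM2R47H/TYROBP heads and 13.57, 13.59 and 13.61 in GMR controls, a log2 fold change of 0.44 (SE 0.17, adjusted p = 0.094). Neither pair of groups overlapped. mt:lrRNA was 12.94, 13.27 and 13.57 in elav TREM2R47H/TYROBP heads and 12.90, 12.99 and 12.97 in controls, which overlapped.

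Removing the pair of libraries that stood apart was an alternative chosen after seeing the data. It left these comparisons with the same libraries on each side, but with a smaller estimated spread and other fold changes. In elav heads the mt: median for TREM2R47H/TYROBP went from 0.60 to 0.48 against control and from 0.71 to 0.69 against TREM2WT/TYROBP. In GMR heads the median against control went from 0.51 to 0.62. The pair was picked by its mt: values, so leaving it out had to shrink the spread of these rows. Calls added in that fit, here and below, are therefore no further support. The share of all rows called there is not given. The mt: calls over the 18 comparisons within a driver went from 5 to 15, and none of the 5 was lost. For elav TREM2R47H/TYROBP against TREM2WT/TYROBP they went from 2 to 6 with mt:CoI (0.43, adjusted p = 0.033), mt:ATPase6 (0.59, adjusted p = 0.040), mt:ND6 (0.87, adjusted p = 0.030) and mt:ND1 (0.69, adjusted p = 0.024). For GMR TREM2R47H/TYROBP against control they went from 1 to 4 with mt:CoI (0.49, adjusted p = 0.018), mt:ATPase6 (0.62, adjusted p = 0.034) and mt:CoIII (0.53, adjusted p = 0.025).

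**Figure D3:**
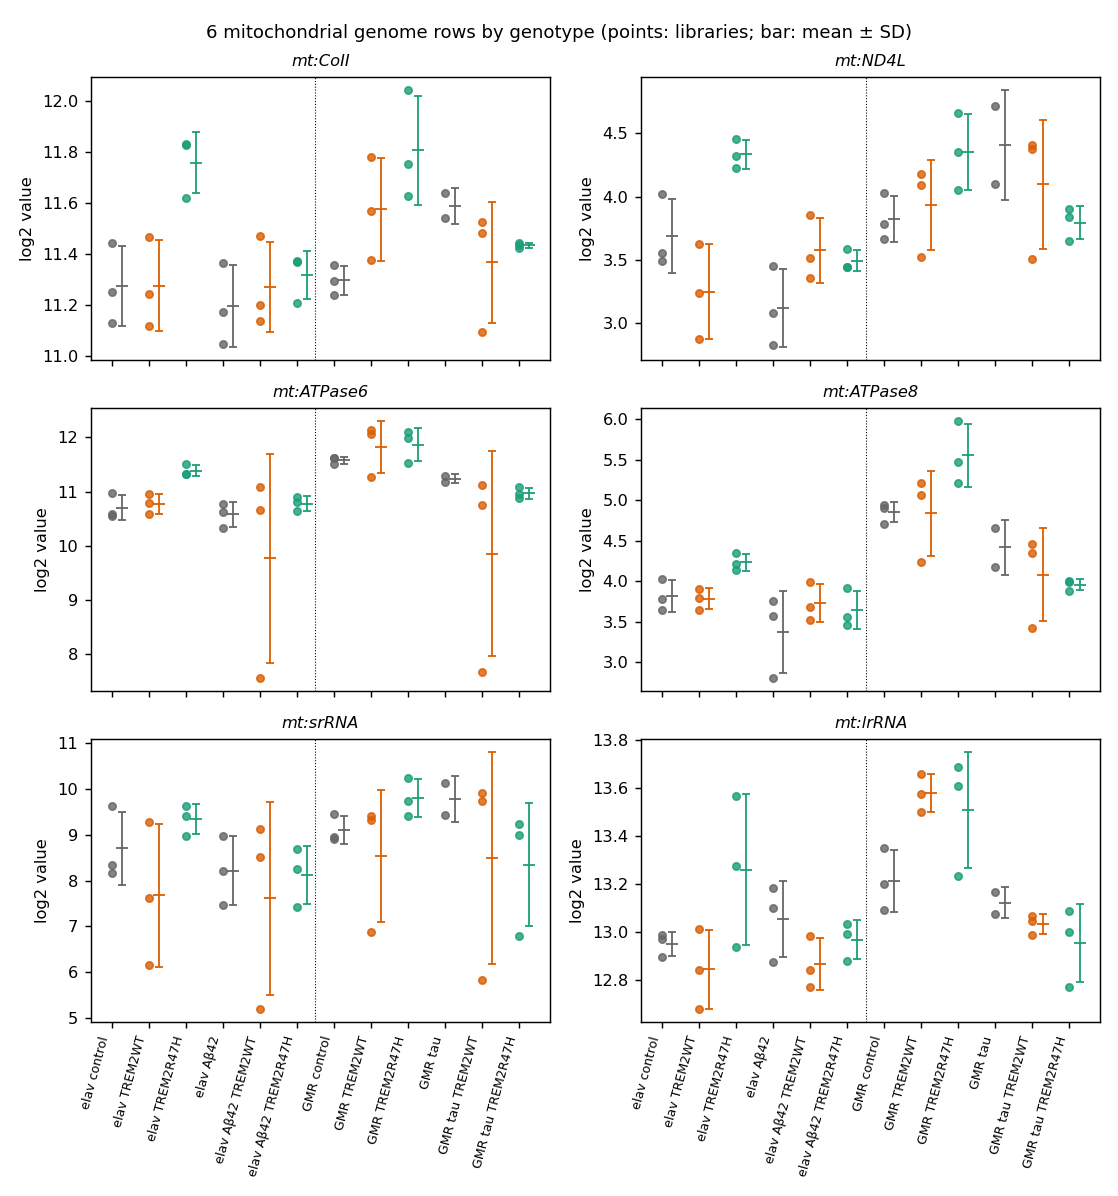
Log2 values at equal RIN (y axes) of mt:CoII, mt:ND4L, mt:ATPase6, mt:ATPase8, mt:srRNA and mt:lrRNA in the 12 genotypes (x axes), with points for libraries and bars for mean ± SD; green marks TREM2R47H/TYROBP, orange TREM2WT/TYROBP, grey neither, and the dotted line parts elav from GMR genotypes. mt:CoII was 11.62 to 11.83 in the 3 elav TREM2R47H/TYROBP libraries, above the 11.05 to 11.47 of the other elav libraries, and the deep low points of mt:ATPase6 at 7.56 and 7.68 are the libraries that stood apart.

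With Aβ42 present no mt: row was called for TREM2R47H/TYROBP. mt:CoII was 11.37, 11.21 and 11.37 with Aβ42 and TREM2R47H/TYROBP, 11.37, 11.05 and 11.17 with Aβ42 alone, and 11.14, 11.20 and 11.47 with Aβ42 and TREM2WT/TYROBP. These groups overlapped. None of the 17 rows was called in the 3 comparisons of Aβ42/TREM2R47H/TYROBP with control, with Aβ42 and with Aβ42/TREM2WT/TYROBP, where limma also gave 0 rows at an unadjusted p under 0.05 and medians of -0.02, 0.17 and 0.20. Calls made up 10.5%, 6.16% and 1.64% of all rows there. The last median turned to -0.17 without the pair of libraries that stood apart. Aβ42 alone against control had 16 of 17 rows negative with a median of -0.20, none called by limma against 6.10% of all rows, and 1 at an unadjusted p under 0.05.

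Tau alone against control called no mt: row. mt:ND2, a complex I subunit, was 7.42 and 6.07 with tau and 5.51, 5.42 and 5.84 in GMR controls, which did not overlap, with a log2 fold change of 1.15 (SE 0.40, adjusted p = 0.077). Over the 17 rows 14 were positive with a median of 0.52, and 13 were higher in both tau libraries than in every control, as were 22.7% of all rows. Limma called 0, against 5.32% of all rows, with 2 at an unadjusted p under 0.05. Without the pair of libraries mt:ND2 (1.21, adjusted p = 0.037) and mt:CoI (0.40, adjusted p = 0.047) were called. The tau group held only 2 libraries, and mt:ND2 differed between them by more than any of the control libraries did.

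Adding either TREM2 form to tau gave lower mt: values than tau alone, with no call. For tau/TREM2R47H/TYROBP 16 of 17 rows were negative with a median of -0.46, and 14 of 17 were lower without overlap, as were 17.5% of all rows. Limma called none against 3.48% of all rows, with 2 at an unadjusted p under 0.05. mt:ND2 was 5.44, 5.76 and 5.68 there, below both tau libraries. For tau/TREM2WT/TYROBP all 17 rows were negative with a median of -0.56, which was -0.04 without the pair of libraries that stood apart. Limma called none there against 3.19% of all rows, with 1 at an unadjusted p under 0.05. The median of tau/TREM2WT/TYROBP against control moved in the same way from -0.12 to 0.47, and that of tau/TREM2R47H/TYROBP against tau/TREM2WT/TYROBP from 0.09 to -0.46. These directions turned or vanished with libraries left out, of which replicate 1 of GMR tau/TREM2WT/TYROBP was the one in the groups compared.

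Whether the effect of a TREM2 form differed with Aβ42 or tau was tested as an interaction in the same fit. None of the 17 mt: rows had an adjusted p under 0.05 in any of the 4 interactions in limma. Of all rows 0.238% and 0.672% passed for TREM2WT and TREM2R47H with Aβ42, and 0.357% and 0.175% with tau. The smallest adjusted p was 0.48 for TREM2R47H with Aβ42 and 0.27 for TREM2R47H with tau. It was 0.54 for TREM2WT with Aβ42 and 0.25 for TREM2WT with tau. All 17 fitted interaction values were negative for TREM2R47H with Aβ42 and for either TREM2 form with tau, with medians of -0.39, -0.99 for TREM2R47H with tau and -0.71 for TREM2WT with tau, while 7 of 17 were negative for TREM2WT with Aβ42 (median 0.04). Rows at an unadjusted p under 0.05 numbered 1 and 7 for TREM2R47H with Aβ42 and tau, and 2 and 3 for TREM2WT. Over all 14279 rows they numbered 1465 and 1524 for TREM2R47H, and 1010 and 2076 for TREM2WT. Without the pair of libraries that stood apart the TREM2WT medians were 0.51 with Aβ42 and -0.23 with tau. A difference in the TREM2R47H effect with and without Aβ42 or tau was therefore not shown for any row. The effect of TREM2R47H did not differ between drivers past the test for any mt: row either (smallest adjusted p = 0.85, 0 rows at an unadjusted p under 0.05, 0.469% of all rows past the test), with differences between -0.56 and 0.28. Nor did that of TREM2WT (smallest adjusted p = 0.26, 2 rows at an unadjusted p under 0.05, 1.82% of all rows past the test). Its differences, GMR less elav, were positive for all 17 rows with a median of 0.28. That median was -0.13 with scaling on the sum of rows that are not mt:.

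mt:ATPase8, a small subunit of ATP synthase read from the transcript that also carries mt:ATPase6, was the one mt: row called lower in a tau genotype. The row is 162 bases long, with a mean log2 level per kilobase of 6.81 against 11.50 for mt:ATPase6. The part of read counting in its value was not tested. mt:ATPase8 was 4.71, 4.94 and 4.91 in GMR controls and 4.02, 3.64 and 3.78 in elav controls. The 9 GMR libraries without tau lay between 4.23 and 5.98 (median 5.07), the 8 with tau between 3.43 and 4.66 (median 4.09), and the 18 elav libraries between 2.80 and 4.35 (median 3.77). mt:ATPase8 was 3.99, 3.87 and 4.01 with tau and TREM2R47H/TYROBP and fell by 0.90 against GMR control (SE 0.27, adjusted p = 0.026), without overlap, where 4.08% of all rows were called lower. For tau alone, at 4.66 and 4.18, it differed by -0.43 (not called). The call was lost without GMR control replicate 2 or 3 or without GMR tau/TREM2R47H/TYROBP replicate 1 or 2, with log2 fold changes between -0.85 and -0.91 and adjusted p-values of 0.062 to 0.085, and with GMR libraries alone in the fit (adjusted p = 0.098). mt:ATPase6 was 10.87, 11.08 and 10.95 in the same libraries and 11.51, 11.62 and 11.62 in GMR controls, with -0.61 not called, and -0.56 called (adjusted p = 0.015) without the pair of libraries. For tau alone against control mt:ATPase6 differed by -0.34, and between the control groups of the drivers by 0.87, neither called.

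Between the control groups of the drivers mt:ATPase8 was the one mt: row called, higher in GMR by 1.04 (SE 0.28, adjusted p = 0.0046). This comparison called 24.7% of all rows in either direction, and the sex markers moved with it.

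Across the 18 comparisons within a driver the mt: rows gave 5 calls in 306 tests, or 1.63%, against 4.80% for all rows. The calls fell on 3 genes, mt:CoII, mt:ND4L and mt:ATPase8, and 14 comparisons had none.

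The 72 mRp genes lay on chromosome arms 2L (12), 2R (11), 3L (17), 3R (21) and X (11), and 41 overlapped another row. Mean log2 levels per kilobase ran from 2.60 for mRpS24 (3R, 24162829 to 24163545) through a median of 4.15 to 5.65 for mRpS5 (3L, 24537236 to 24543534), all with a mean log2 value above 0. Over the 18 comparisons the set medians lay between -0.07 and 0.12. With scaling on the sum of rows that are not mt: they lay between -0.17 and 0.18, and that of GMR TREM2WT/TYROBP against control turned from 0.08 with 55 of 72 rows positive to -0.17 with 5. mRp rows gave 33 calls in 1296 tests, or 2.55%, on 13 genes, of which 10 were called in 1 comparison only, and none had a log2 fold change above 1. The calls concentrated on mRpL37 and mRpL41.

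mRpL37 (FBgn0261380, 3R, 10782563 to 10784092, minus strand) codes a large subunit protein and was high wherever TREM2R47H/TYROBP was expressed. In elav heads it was 4.25, 4.27 and 4.21 with TREM2R47H/TYROBP, 3.90, 3.76 and 3.80 in controls and 3.97, 3.65 and 3.85 with TREM2WT/TYROBP. With Aβ42 it was 4.24, 4.24 and 4.27 with TREM2R47H/TYROBP, 3.75, 3.69 and 3.76 without TREM2 and 3.75, 3.83 and 3.85 with TREM2WT/TYROBP. The TREM2R47H/TYROBP libraries were above all others in both settings.

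In GMR heads mRpL37 was 4.27, 4.40 and 4.30 with TREM2R47H/TYROBP, 3.82, 3.82 and 3.79 in controls and 3.73, 3.81 and 3.85 with TREM2WT/TYROBP. With tau it was 4.46, 4.49 and 4.29 with TREM2R47H/TYROBP, 3.75 and 3.91 without TREM2 and 3.80, 3.82 and 3.76 with TREM2WT/TYROBP. All 12 TREM2R47H/TYROBP libraries lay between 4.21 and 4.49 and the other 23 between 3.65 and 3.97, with no overlap. mRpL37 rose in all 10 comparisons of a TREM2R47H/TYROBP genotype with a genotype lacking it, by log2 fold changes of 0.42 to 0.62 (SE 0.06 to 0.08, adjusted p = 1.8e-07 to 2.5e-04). No library left out ended any of these calls. Of all rows, those called higher made up 1.92% and 4.59% against control in elav and elav Aβ42 heads, 3.28% against Aβ42, and 0.868% and 0.966% against TREM2WT/TYROBP without and with Aβ42. In GMR heads they made up 2.83% and 3.87% against control without and with tau, 1.78% against tau, and 0.812% and 1.13% against TREM2WT/TYROBP. Fitted with elav libraries alone, mRpL37 in TREM2R47H/TYROBP against control was 0.35 (adjusted p = 0.22). With each library scaled on the sum of rows that are not mt:, mRpL37 lost its call in GMR TREM2R47H/TYROBP against control and in all comparisons with TREM2WT/TYROBP except that with tau, at log2 fold changes of 0.35 to 0.64 (adjusted p = 0.058 to 0.50).

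Genes beside mRpL37 on 3R moved with it. Desi (10779569 to 10780825) and CG42633 (10780965 to 10782267) lie beside it and are named for their position. For TREM2R47H/TYROBP against TREM2WT/TYROBP in elav, elav Aβ42, GMR and GMR tau heads, Desi rose by 4.18, 2.65, 1.73 and 1.62. CG42633 was 0.89 (not called) in the first and rose by 1.74, 1.67 and 2.03 in the others. Art1 (10786481 to 10788226), an arginine methyltransferase gene, had fold changes between -0.02 and 0.02, none called. Desi, at a mean log2 value of -1.25, also differed by -2.13 with TREM2WT/TYROBP against control in elav heads, a call. The part of the position of mRpL37 in its result was not tested.

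mRpL41 (FBgn0034001, 2R, 15217024 to 15217617, minus strand), another large subunit protein gene, was high wherever TREM2WT/TYROBP was expressed. In elav heads it was 2.88, 3.03 and 3.02 with TREM2WT/TYROBP, 2.47, 2.50 and 2.57 in controls and 2.31, 2.43 and 2.35 with TREM2R47H/TYROBP. With Aβ42 it was 2.84, 2.95 and 2.95 with TREM2WT/TYROBP, 2.25, 2.48 and 2.30 without TREM2 and 2.22, 2.29 and 2.46 with TREM2R47H/TYROBP. No TREM2WT/TYROBP library overlapped the rest.

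In GMR heads mRpL41 was 3.22, 2.96 and 3.06 with TREM2WT/TYROBP, 2.60, 2.61 and 2.62 in controls and 2.63, 2.65 and 2.75 with TREM2R47H/TYROBP. With tau it was 3.24, 3.23 and 3.06 with TREM2WT/TYROBP, 2.65 and 2.72 without TREM2 and 2.69, 2.57 and 2.68 with TREM2R47H/TYROBP. The 12 TREM2WT/TYROBP libraries lay between 2.84 and 3.24 and the other 23 between 2.22 and 2.75. mRpL41 rose by 0.40 to 0.57 in the 6 comparisons of TREM2WT/TYROBP genotypes with genotypes without TREM2, and was lower by log2 fold changes of -0.40 to -0.61 in the 4 comparisons of TREM2R47H/TYROBP with TREM2WT/TYROBP, all called. Of all rows, those called higher made up 1.49%, 3.62% and 1.44% in the elav comparisons with control, of Aβ42/TREM2WT/TYROBP with control and with Aβ42, and 2.51%, 2.48% and 1.30% in the matching GMR comparisons. Those called lower made up 1.02%, 0.672%, 0.959% and 0.938% in the comparisons of the TREM2 forms. Leaving out GMR TREM2R47H/TYROBP replicate 1 ended the call of mRpL41 in GMR TREM2R47H/TYROBP against TREM2WT/TYROBP (-0.33, adjusted p = 0.16), and no other library ended any call of mRpL41. Libraries of the same driver alone also ended that call (-0.39, adjusted p = 0.073) and that of mRpL41 for Aβ42/TREM2WT/TYROBP against control (0.45, adjusted p = 0.050), and scaling on the sum of rows that are not mt: ended it and that for GMR TREM2WT/TYROBP against control (0.23, adjusted p = 0.11).

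CG11808 (15216207 to 15217070, plus strand) overlaps mRpL41 by 47 bases from the other strand and was called with it. For TREM2R47H/TYROBP against TREM2WT/TYROBP its fold changes were -0.39, -0.81, -0.59 and -0.58 in elav, elav Aβ42, GMR and GMR tau heads. CG8079 (15218379 to 15224795), on the other side, was called in none of these. Whether counting used strand was not given in the sources used here, so reads of mRpL41 and CG11808 cannot be told apart over the shared bases. Of all 14279 rows, 43 were called the same way in all 4 comparisons of TREM2R47H/TYROBP with TREM2WT/TYROBP, and mRpL37 and mRpL41 were the 2 members among them. Within 500 kb of mRpL37 lay 4 of the 43, among 120 rows there, with mRpL37 itself counted. Within 500 kb of mRpL41 lay 2, among 134 rows, with mRpL41 itself counted.

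**Figure D4:**
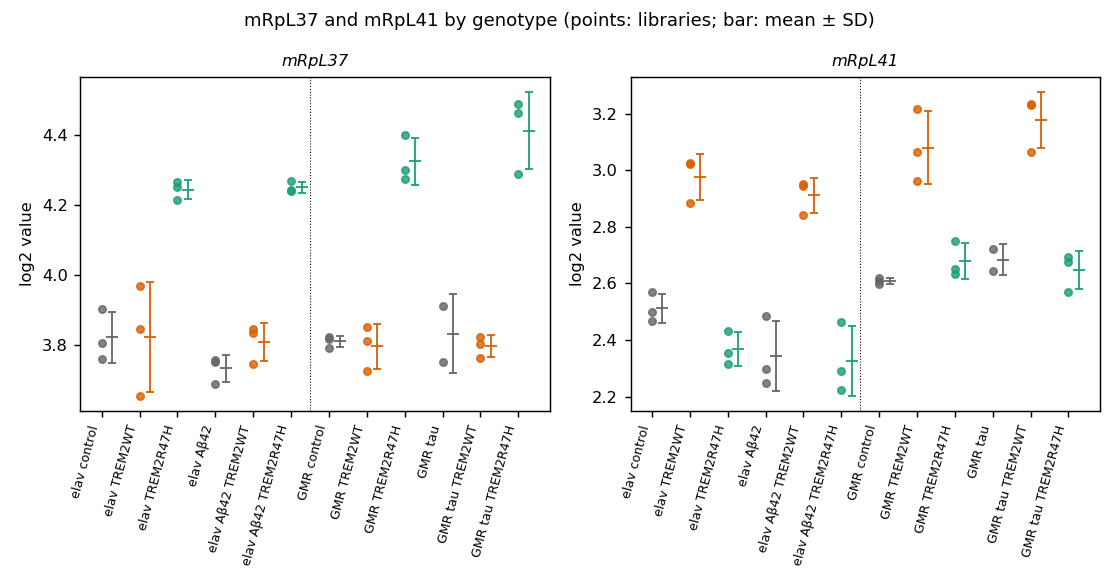
Log2 values at equal RIN (y axes) of mRpL37 (left) and mRpL41 (right) in the 12 genotypes (x axes), with points for libraries and bars for mean ± SD; green marks TREM2R47H/TYROBP, orange TREM2WT/TYROBP, grey neither, and the dotted line parts elav from GMR genotypes. The 12 green points of mRpL37 lie at 4.21 to 4.49 above all others, and the 12 orange points of mRpL41 at 2.84 to 3.24 above all others.

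The other mRp calls were small and mostly seen in 1 comparison. mRpL50 (3L, 7243080 to 7243933), which overlaps Neos by 60 bases, was 3.38, 3.29 and 3.24 with Aβ42 and TREM2R47H/TYROBP, 2.96, 3.03 and 2.93 with Aβ42 alone and 2.81, 2.96 and 2.97 in elav controls. The first group was above both others. mRpL50 rose by 0.39 over control (SE 0.06, adjusted p = 3.7e-05) and by 0.33 over Aβ42 (SE 0.06, adjusted p = 4.9e-04). In GMR heads mRpL50 rose by 0.30 with TREM2R47H/TYROBP over TREM2WT/TYROBP, a call lost without GMR TREM2WT/TYROBP replicate 2 (0.20, adjusted p = 0.35) or GMR TREM2R47H/TYROBP replicate 1 (0.34, adjusted p = 0.076). That call was also lost with no RIN term, with GMR libraries alone and with scaling on the sum of rows that are not mt:.

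In GMR heads with TREM2R47H/TYROBP against control the small subunit genes mRpS21 (0.46), mRpS10 (0.34), mRpS33 (0.34) and mRpS11 (0.29) rose beside mRpL37, 5 of 72 rows where 2.83% of all rows were called higher. The call of mRpS21 was lost in 26 of 35 fits that left out 1 library, which makes it the least stable of the member calls, and it overlaps CG8870 by 234 bases. The calls of mRpS10, mRpS33 and mRpS11 were each lost without GMR control replicate 1 (log2 fold changes of 0.29, 0.29 and 0.25, adjusted p = 0.091, 0.084 and 0.084) or replicate 2 (0.32, 0.31 and 0.29, adjusted p = 0.072, 0.075 and 0.051). The call of mRpS33 was also lost without GMR TREM2R47H/TYROBP replicate 1 (0.39, adjusted p = 0.058) or 2 (0.30, adjusted p = 0.058), and that of mRpS11 without replicate 1 (0.30, adjusted p = 0.087). The calls of these small subunit genes were lost with scaling on the sum of rows that are not mt: (0.16 to 0.33, adjusted p = 0.42 to 0.68), and those of mRpS21, mRpS10 and mRpS11 with no RIN term (0.34, 0.25 and 0.24). Fitted with GMR libraries alone, those of mRpS21, mRpS33 and mRpS11 were lost (adjusted p = 0.11, 0.091 and 0.077). Over all 72 rows 58 were positive with a median of 0.09.

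With TREM2WT/TYROBP against control in GMR heads the large subunit genes mRpL33 (0.36), mRpL36 (0.32) and mRpL49 (0.32) rose beside mRpL41, 4 of 72 rows where 2.51% of all rows were called higher. With scaling on the sum of rows that are not mt: none of these was called, with mRpL33 at 0.11, mRpL36 at 0.07 and mRpL49 at 0.07, and with GMR libraries alone mRpL33 was not (adjusted p = 0.064). The call of mRpL36 was lost without GMR control replicate 1 (0.23, adjusted p = 0.073), and that of mRpL33 without GMR TREM2WT/TYROBP replicate 3 (0.27, adjusted p = 0.075). In elav heads mRpS5 rose by 0.28 with TREM2R47H/TYROBP over control, a call that 6 of 35 fits without 1 library lost: those without any of the 3 elav control libraries, elav TREM2R47H/TYROBP replicate 2 or 3, or GMR TREM2R47H/TYROBP replicate 1 (mRpS5 at 0.20 to 0.29, adjusted p = 0.055 to 0.20). mRpS5 was also not called with elav libraries alone (adjusted p = 0.62), with scaling on that sum (adjusted p = 0.14) or with a replicate block (adjusted p = 0.062). mRpL4 fell by 0.33 with Aβ42 and TREM2WT/TYROBP against control (SE 0.06, adjusted p = 2.8e-04), the one lower mRp call against a genotype without TREM2, where 5.04% of all rows were called lower. mRpL4 was not called with elav libraries alone in the fit (adjusted p = 0.072), with no RIN term (-0.26, under the fold threshold) or with scaling on the sum of rows that are not mt: (-0.14, adjusted p = 0.39).

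When TREM2R47H/TYROBP was added to Aβ42, 62 of 72 rows were positive with a median log2 fold change of 0.12, beside 0.01 over all rows, and 32 were higher without overlap, as were 16.1% of all rows. The shift was not particular to mRp genes, as 90 cytosolic ribosomal protein genes had a median of 0.13 there, with 3 called higher. The mRp rows called were mRpL37, mRpL50 and mRpL48 (0.29), where 3.28% of all rows were called higher. Of the 72 rows 25 had an unadjusted p under 0.05 in limma, as had 3778 of all 14279 rows. The call of mRpL48 was lost without elav Aβ42 replicate 2 (0.27, adjusted p = 0.060) or elav Aβ42/TREM2R47H/TYROBP replicate 3 (0.27, adjusted p = 0.062). mRpL48 also fell under the fold threshold with 1 added before the logarithm (0.26) or median centring (0.25), and scaling on the sum of rows that are not mt: ended the calls of mRpL48 (adjusted p = 0.54) and mRpL50 (adjusted p = 0.21).

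Aβ42 alone and tau alone called no mRp row against control, where 6.10% and 5.32% of all rows were called. Limma gave 12 and 10 of 72 rows at an unadjusted p under 0.05, against 3366 and 3163 of all 14279 rows. The medians of the mRp rows were -0.07 and 0.09. The interactions of TREM2 with Aβ42 or tau and the differences between drivers also called none in 432 tests, of which 41 had an unadjusted p under 0.05. Between 1010 and 2076 of all 14279 rows had such a p in each of these contrasts. Of all rows 0.238%, 0.672%, 0.357% and 0.175% passed in the interactions, in the order given for mt: rows, and 1.82% and 0.469% in the differences between drivers for TREM2WT and TREM2R47H. The control groups of the drivers, between which 24.7% of all rows were called, differed in mRpL42 (0.36) and mRpL12 (0.28), higher in GMR, and in mRpS25 (-0.31) and mRpL16 (-0.27), higher in elav. The call of mRpL12 was lost without GMR control replicate 3 (0.26, under the fold threshold), and that of mRpL16 without any of 6 libraries (-0.20 to -0.26, under the fold threshold): GMR control replicate 3, elav control replicate 2 or 3, GMR TREM2WT/TYROBP replicate 1 or 2 and GMR tau/TREM2WT/TYROBP replicate 2.

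**Figure D5:**
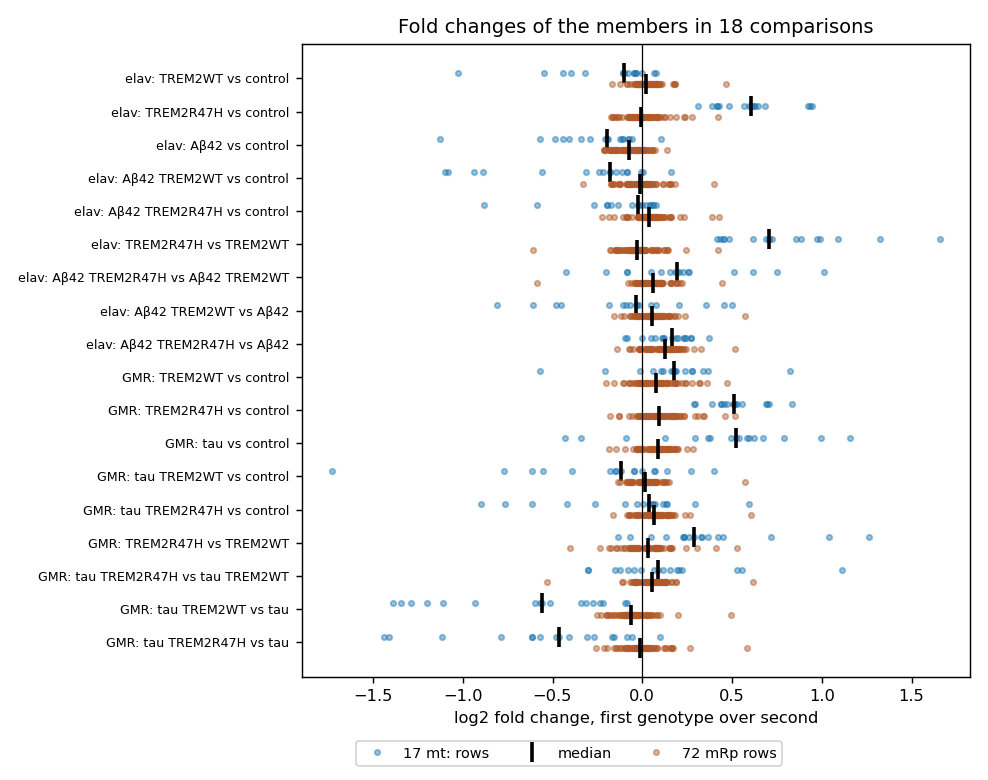
Log2 fold changes (x axis) of the 17 mt: rows (blue) and the 72 mRp rows (brown) in the 18 comparisons within a driver (y axis), with black bars for medians. The mt: medians reach 0.60 and 0.71 for elav TREM2R47H/TYROBP and lie at -0.56 and -0.46 for the TREM2 forms added to tau, while the mRp medians stay between -0.07 and 0.12.

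Nuclear genes of the same organelle were counted from lists matched by symbol. The 87 nuclear subunits of the respiratory complexes and ATP synthase had 0 rows called higher and 1 lower with TREM2R47H/TYROBP against control in elav heads (median -0.05), 0 and 0 against TREM2WT/TYROBP (median -0.04), and 2 higher and 0 lower in GMR heads against control (median 0.01). Of all rows 1.92% were called higher and 2.49% lower in the first comparison, 1.88% in either direction in the second and 5.76% in the last. In the same comparisons the mt: medians were 0.60, 0.71 and 0.51. The 46 genes of mitochondrial DNA replication, transcription, RNA processing, translation factors and aminoacyl-tRNA synthetases had no call in these comparisons, where 4.41%, 1.88% and 5.76% of all rows were called in either direction. One of them, CG12736 of the translation factor list, rose in the 3 elav Aβ42 genotypes against control, by 0.31 with Aβ42, 0.28 with TREM2WT/TYROBP added and 0.35 with TREM2R47H/TYROBP added. With Aβ42 alone 1 of the 46 was also called lower, where 6.10% of all rows were called in either direction. With TREM2WT/TYROBP and TREM2R47H/TYROBP added, 3.62% and 4.59% of all rows were called higher. The 90 cytosolic ribosomal proteins had 0 calls in either direction in elav TREM2R47H/TYROBP against control (median -0.01) and 9 higher with tau against control (median 0.19), where 2.46% of all rows were called higher.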

How the data were processed

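The authors depleted rRNA from total head RNA, made libraries with the TruSeq v2 kit and random hexamers, aligned single-end reads to BDGP6 with STAR 2.5.0b and counted them per Ensembl gene with featureCounts. Genes reaching 5 reads in some sample were retained. The deposited values were TMM-normalized log2 CPM that the authors had already adjusted for RIN; the largest slope on RIN over 35 libraries was 2.99e-14. Depth per library and strand setting were not given in the sources used here.

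Here 12 genotypes and RIN were fitted in limma 3.58.1 (R 4.3.3) over all 35 libraries (22 residual degrees of freedom), with Benjamini-Hochberg adjustment over 14279 rows. Printed values have the fitted RIN slope within genotypes taken out at a mean RIN of 6.71. Calls needed an adjusted p under 0.05 and a fold above 1.2 as in the study's Results (its methods also state a log2 fold change above 1, an alternative); interactions and differences between drivers needed the adjusted p alone. The script was tested on simulated data. Alternatives changed the RIN term, the libraries fitted, filters, pseudocount, scaling and the replicate block. Fits with no RIN term kept the adjustment for RIN made by the authors.

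Named genes were all mt: protein and rRNA rows, every other member row called in a comparison, the mRp rows with the largest rise and fall in each driver and those with the highest and lowest level per kilobase, and from other lists counts with at most the largest change called. Neighbours of mRpL37 and mRpL41 were added after their values were seen. Members and lists were chosen with earlier results of these data known. Replicate numbers were checked as pairs by correlating deviations from group means: all 3 pairs exceeded 0.1 only for GMR tau/TREM2R47H/TYROBP against control (0.17 to 0.46), where the replicate block changed no call of a member. One result that names a withheld item is not reported here.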

Additional observations from a re-analysis of the deposited data

How the results depend on the processing

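No member call reversed. Of 43 calls, those within a driver and those between controls, all were kept when rows with a mean below 0 were dropped, with a trended robust variance and without both low libraries. The calls kept were 37 with no RIN term, 40 with 1 added before the logarithm, 39 with median centring, 20 with scaling to the sum of rows that are not mt: and 2 with a log2 fold change above 1, while 24 of 38 were kept with libraries of the same driver only. Scaling to that sum moved the median of all rows to between -0.24 and 0.18. Below are the counts of called rows that moved by over 1.5 times, and the cause of a change was not tested. Depth limits cannot be given without counts, and with 2 or 3 libraries a group only differences large against the spread can be called.

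With no RIN term the mt: count went from 1 to 2 (elav TREM2R47H against control), 2 to 1 (elav TREM2R47H against TREM2WT) and 0 to 1 (tau/TREM2WT against control), and the mRp count from 2 to 1 (Aβ42/TREM2WT against control), 5 to 2 (GMR TREM2R47H against control) and 4 to 11 (GMR against elav control). With libraries of the same driver only, the mt: count went from 1 to 0 for elav TREM2R47H, GMR TREM2R47H and tau/TREM2R47H against control and from 2 to 1 for elav TREM2R47H against TREM2WT. The mRp count went from 2 to 0 for elav TREM2R47H and Aβ42/TREM2WT against control, 5 to 2 for GMR TREM2R47H against control and 3 to 1 for GMR TREM2R47H against TREM2WT. Dropping rows with a mean below 0 gave 1 mRp row for tau against control in place of 0, adding 1 before the logarithm gave 2 for GMR against elav control in place of 4, and median centring gave 3 for GMR TREM2R47H against control in place of 5 and 2 for tau/TREM2R47H against tau in place of 1.

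Under scaling to the sum of other rows the mt: count was 0 for elav and GMR TREM2R47H against control and 1 for elav TREM2R47H against TREM2WT. The mRp count was 1 for elav TREM2R47H and Aβ42/TREM2WT against control, elav TREM2R47H against TREM2WT with and without Aβ42, and Aβ42/TREM2R47H against Aβ42, 0 for GMR TREM2R47H against control and TREM2WT, 2 for GMR against elav control, and 11 in place of 0 for the TREM2WT effect in GMR less that in elav. With a log2 fold change above 1 every count was 0 except 1 mt: row, mt:ND4L for elav TREM2R47H against TREM2WT, and mt:ATPase8 for GMR against elav control.

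Without both low libraries, chosen after seeing the data, the mt: count was 6 for elav TREM2R47H against TREM2WT, 4 for GMR TREM2R47H against control, 2 for tau against control, tau/TREM2R47H against control and GMR against elav control, and the mRp count was 1 for tau against control and 2 for tau/TREM2WT against tau. With the replicate block and RIN together, where outside the comparison named in the methods samples shared only a number, 7 of 43 calls were lost. The block gave 0 mt: rows for elav TREM2R47H against control and GMR against elav control, 1 mt: row for elav TREM2R47H against TREM2WT and 1 mRp row for elav TREM2R47H against control.

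Leaving out 1 library at a time gave mt: counts of 0 to 2 for elav and GMR TREM2R47H against control, 0 to 4 for elav TREM2R47H against TREM2WT, and 0 to 1 for GMR TREM2WT, tau, tau/TREM2WT and tau/TREM2R47H against control and for either TREM2 form with tau against tau. It gave mRp counts of 1 to 3 (elav TREM2R47H against control), 1 to 2 (Aβ42/TREM2WT against Aβ42, tau/TREM2R47H against control and against tau), 1 to 5 (GMR TREM2R47H against control), 0 to 2 (tau against control), 1 to 3 (GMR TREM2R47H against TREM2WT), 2 to 3 (elav TREM2R47H against TREM2WT), 2 to 4 (Aβ42/TREM2R47H against Aβ42), 3 to 5 (GMR TREM2WT against control) and 3 to 9 (GMR against elav control).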
